A study of Rattus norvegicus with 10 samples.

Results

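The IL-1 family and its receptors were examined through 10 genes, Il1a, Il1b, Il1rn, Il1r1, Il1r2, Il1rap, Il18, Il18bp, Il33 and Il1rl1. All probe sets to which the array annotation gives one of these symbols and no other were taken, which gave 16 of the 31042 probe sets tested. The arrays hold mRNA of rat resident peritoneal macrophages, 5 samples without myelin (control macrophages) and 5 samples that had been given 100 µg/ml of isolated myelin during 3 days of culture (mye-macrophages), with 1 array per sample. All 10 samples, controls included, were then stimulated over 9 hours with IFNγ and IL-1β (100 ng/ml), so no unstimulated level exists here and the added IL-1β protein itself is not measured. The rats were of strain Hsdcpb:WU, a Wistar strain, their age is not given in the labels, and the macrophages were the cells of a peritoneal lavage that adhered in culture. In samples of mixed RNA, fewer cells of a type and less RNA per cell cannot be told apart.

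IL-1α and IL-1β, encoded by Il1a and Il1b, are the founding inflammatory cytokines of the family, and macrophages are a main source of both. They bind the receptor encoded by Il1r1, which recruits the accessory chain encoded by Il1rap and signals through MyD88 and IRAK kinases to NF-κB. The family also holds brakes: Il1rn encodes an antagonist that occupies the receptor without signaling, Il1r2 a decoy receptor, and Il18bp a soluble protein that traps the related cytokine IL-18. IL-33 is a further member of the family, released from damaged cells, and Il1rl1 encodes its receptor ST2, which mast cells carry.

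The values are log2 RMA signals, and a difference of 1 is a doubling. Mye-macrophages were compared with control macrophages by limma with the replicate number of the labels as a block, and p-values were adjusted over all 31042 probe sets. Deviations from the group means correlated at 0.404 to 0.791 between samples of equal number and at 0.279 or less between others, so samples of equal number are called a pair. The labels do not say what the number stands for or whether samples came from separate animals, so p-values measure only the spread between these samples. The medians of the arrays lay between 2.30 and 2.34, which is low for RMA values of this array type, and the sources used here give no reason, so dim means low on this scale only. Signals of different probe sets are not comparable as levels. Of the macrophage markers, 9 of 10 were measured, and Cd68, Lyz2 and Cd14 had signals of 9.54 to 12.55 on all arrays, while Cd163 lay between 0.49 and 2.81. The defining markers of granulocytes (5 of 7 measured, highest signal 2.07) and of mesothelial cells such as Msln (2.27 to 2.71) stayed low. Of the 9 mast cell markers, 8 were highest in the samples numbered 4 of both groups, as given below with Il1rl1.

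None of the 16 probe sets reached an adjusted p under 0.05 in limma with the block, where 0.412% of all probe sets passed. At an unadjusted p under 0.05 there was 1, a probe set of Il1a, against 12.1% of all probe sets, and the methods' t-test without the block gave 0 at either level. Their log2 fold changes ran from -0.54 to 0.15, with a median of -0.02 beside 0.0044 for all probe sets, and 8 lay above and 8 below 0. The groups overlapped in every one of the 16 (they did not overlap in 0.734% of all probe sets). The 95% intervals of 15 probe sets included 0, and standard errors lay between 0.06 and 0.20. The 3′ probe set of beta-actin exceeded the 5′ one, a measure that grows as RNA degrades, by 3.02 ± 0.30 in control macrophages and 3.30 ± 0.32 in mye-macrophages (log2, SD, n = 5 each, exact permutation test p = 0.190, two-sided), and its part in the differences below is given with the processing alternatives.

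**Figure D1:**
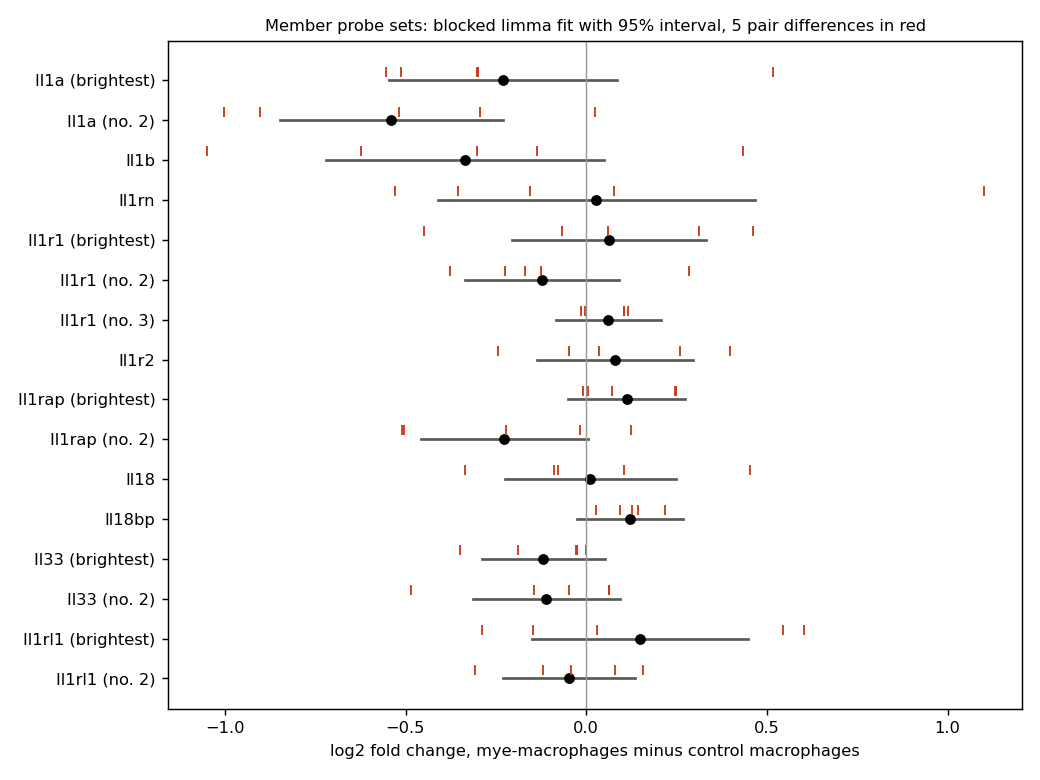
Log2 fold change of each member probe set, mye-macrophages minus control macrophages (black point), with its 95% interval from limma with the block (grey line) and the 5 pair differences (red ticks), 5 samples per group. The interval of 1 Il1a probe set lies below 0, from -0.85 to -0.23, and all others include 0.

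Il1a and Il1b lie next to each other on chromosome 3, and Il1rn lies elsewhere on it. RefSeq promoters were at hand for 9 of the 10 genes, and those of Il1a, Il1b and Il1rn are shown because the first pair varied together across the samples and the antagonist did not. Each is the 250 bases before the transcript start in build GRCr8, 5′ to 3′ on the strand of the gene, with matches to the searched motifs in capitals.
Il1a, chr3:136990018-136990267, minus strand: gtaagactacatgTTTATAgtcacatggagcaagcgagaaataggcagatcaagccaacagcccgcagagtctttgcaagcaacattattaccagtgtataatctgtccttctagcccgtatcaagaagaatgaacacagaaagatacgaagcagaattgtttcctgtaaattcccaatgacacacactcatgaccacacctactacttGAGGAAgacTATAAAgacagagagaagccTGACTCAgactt
Il1b, chr3:137036582-137036831, minus strand: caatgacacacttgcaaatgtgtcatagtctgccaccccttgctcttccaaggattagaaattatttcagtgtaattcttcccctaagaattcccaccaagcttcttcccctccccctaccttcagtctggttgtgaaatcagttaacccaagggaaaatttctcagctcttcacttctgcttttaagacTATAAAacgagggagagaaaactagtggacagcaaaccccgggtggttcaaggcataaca
Il1rn, chr3:27520072-27520321, plus strand: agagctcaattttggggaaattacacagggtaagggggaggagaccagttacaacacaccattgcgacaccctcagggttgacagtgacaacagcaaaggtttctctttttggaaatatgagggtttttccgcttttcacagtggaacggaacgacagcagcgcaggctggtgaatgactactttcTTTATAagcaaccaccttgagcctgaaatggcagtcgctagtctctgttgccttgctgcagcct
Searched on both strands were TATAAA (found in 12.9% of all promoter windows of this length), GAGGAA, the core of PU.1 sites (23.3%), TGANTCA for AP-1 (6.34%), GGGA and CC with any 4 bases between them for NF-κB (16.4%), TTGCNNAA for C/EBP (9.22%) and TTTC, any 2 bases and TTTC for interferon response elements (3.41%). The Il1a window holds TATAAA at 32 bases before the start with GAGGAA and TGACTCA beside it, and TATAAA once more on the other strand. The Il1b window holds TATAAA at 60 bases before the start as its only match, and the Il1rn window holds it on the other strand only. None of the 3 windows holds the NF-κB letters, whereas Il1rap holds them at 2 places, GGGACTGCCC and GGGAAGCCCC. A match is a description of letters and not of binding.

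Among the ligands, Il1a was measured by 2 probe sets. On the brighter one, control macrophages had 10.16, 7.72, 10.48, 10.61 and 9.70 for replicates 1 to 5, and mye-macrophages had 9.86, 8.24, 9.97, 10.31 and 9.15. The signal was lower with myelin in 4 of 5 pairs and higher in pair 2, and pair 2 was the lowest in both groups. The difference was -0.23 (standard error 0.14, 95% interval -0.54 to 0.08, adjusted p = 0.559 from blocked limma). On the other probe set, control macrophages had 7.12, 4.53, 6.997, 7.46 and 6.08 and mye-macrophages had 6.12, 4.55, 6.70, 6.95 and 5.17. Here, too, 4 of 5 pairs were lower, pair 2 differed by 0.02, and replicate 2 was the lowest sample of both groups. This was the largest difference of all members, -0.54 or 0.69-fold (standard error 0.14, adjusted p = 0.144 from blocked limma, 0.0725 when the adjustment covered the 50% of probe sets that varied most). With an intensity trend in the variance prior of limma it passed (adjusted p = 0.0336). The exact permutation test over the samples gave p = 0.437, and its paired form p = 0.125.

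Il1b followed the same pattern. Control macrophages had 10.42, 8.05, 11.08, 11.19 and 10.31, and mye-macrophages 10.28, 8.48, 10.45, 10.88 and 9.26. Pairs 1, 3, 4 and 5 were lower with myelin, by 0.14 to 1.05, and pair 2 was higher by 0.43. The mean difference was -0.34, or 0.79-fold (standard error 0.17, 95% interval -0.72 to 0.05, adjusted p = 0.479 from blocked limma), and as a fold the interval runs from 0.61 to 1.04. Without pair 2 the difference was -0.53 for Il1b, and -0.42 and -0.68 for the probe sets of Il1a, and none passed (lowest adjusted p = 0.134 from limma). Without pair 5 Il1b had -0.16.

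Il18, whose product drives interferon production by lymphocytes, had 6.86, 6.12, 6.72, 6.38 and 6.82 in control macrophages and 7.31, 5.78, 6.63, 6.48 and 6.74 in mye-macrophages. It was higher with myelin in 2 pairs and lower in 3, and the difference was 0.01 (standard error 0.11, 95% interval -0.22 to 0.25, adjusted p = 0.979 from blocked limma). Il33 had 4.27 to 4.55 in control macrophages and 4.08 to 4.52 in mye-macrophages on its brighter probe set, with a difference of -0.12, and 3.04 to 4.21 against 3.11 to 3.72 on the other, with -0.11. The groups overlapped on both Il33 probe sets (adjusted p = 0.580 and 0.689 from blocked limma).

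**Figure D2:**
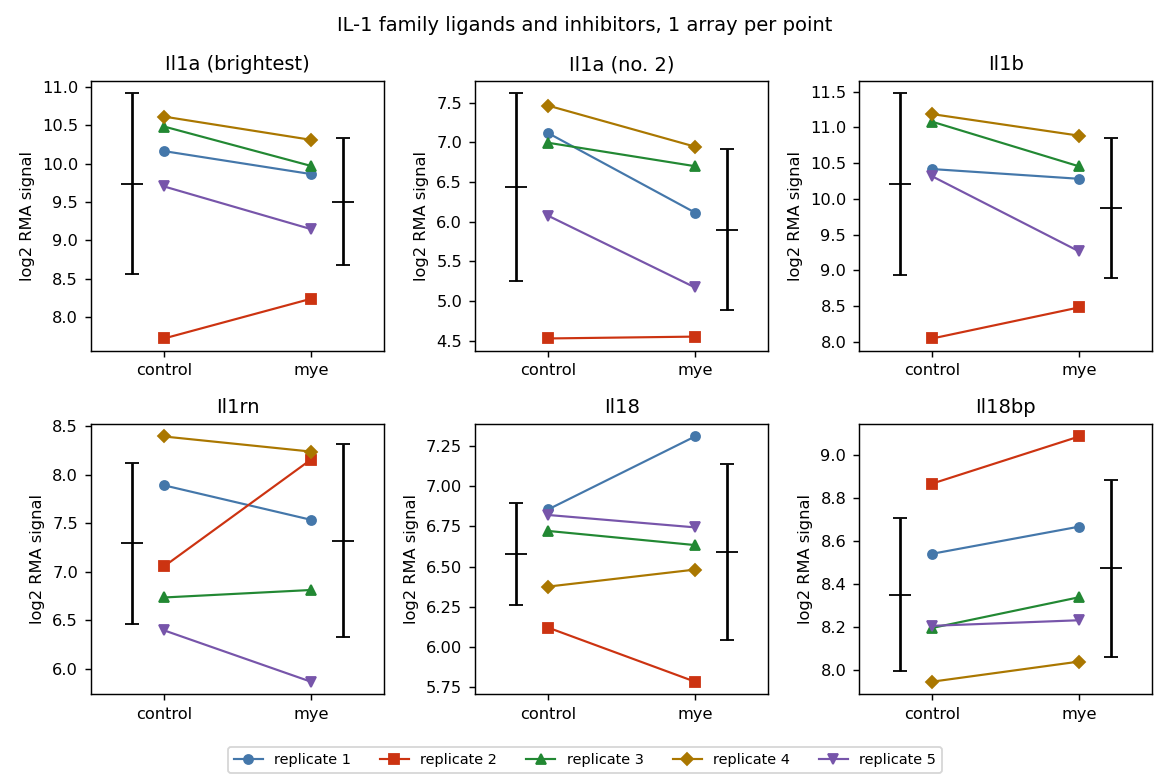
Log2 RMA signal of the Il1a, Il1b, Il1rn, Il18 and Il18bp probe sets on each array, with lines joining control macrophages and mye-macrophages of the same replicate number and black bars for the mean ± SD of 5 samples. Replicate 2 lies lowest for Il1a, Il1b and Il18 and highest for Il18bp in both groups, and Il18bp is the one in which all 5 lines slope upwards.

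Among the inhibitors, the level of Il1rn did not follow that of Il1a and Il1b across the replicate numbers. The direction of its difference with myelin was that of Il1a and Il1b in pairs 1, 2, 4 and 5. Control macrophages had 7.89, 7.06, 6.74, 8.40 and 6.40, and mye-macrophages 7.54, 8.16, 6.81, 8.24 and 5.87. The samples numbered 5 were the lowest and those numbered 4 the highest in both groups. Pair 2 was higher with myelin by 1.10, pair 3 by 0.08, and the other pairs were lower by 0.16 to 0.53. The mean difference was 0.03 (standard error 0.20, 95% interval -0.41 to 0.47, adjusted p = 0.973 from blocked limma) and turned to -0.24 without pair 2. Within an array the Il1rn signal minus the Il1b signal was higher with myelin in 4 of 5 pairs, by 0.36 ± 0.39 on average (log2, SD, n = 5 pairs), which is given as a description.

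Il18bp was the 1 probe set of the 16 that differed in the same direction in all 5 pairs. Control macrophages had 8.54, 8.87, 8.19, 7.94 and 8.20, and mye-macrophages 8.67, 9.09, 8.34, 8.04 and 8.23. It was higher with myelin in 5 of 5 pairs, as were 6.16% of all probe sets (6.59% were lower in 5 of 5), by 0.03 to 0.22. The mean difference was 0.12 (standard error 0.07, 95% interval -0.03 to 0.27, adjusted p = 0.504 from blocked limma), and the paired exact permutation test gave p = 0.0625, the smallest that 5 pairs allow. Il1r2, the decoy receptor gene, lay between 0.66 and 1.08 on all arrays, near the floor of the signals, with a difference of 0.08 (adjusted p = 0.796 from blocked limma).

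Among the signaling receptors, Il1r1 is the one through which the added IL-1β acts. Its brightest probe set had 1.80, 1.66, 2.06, 2.76 and 1.96 in control macrophages and 2.26, 1.97, 2.12, 2.31 and 1.89 in mye-macrophages. These signals lay under the median of all probe sets (2.32) except for control replicate 4, and the groups overlapped. The other Il1r1 probe sets lay between 0.52 and 1.04 throughout, and the 3 differences were 0.06, -0.12 and 0.06 (lowest adjusted p = 0.663 from blocked limma). A difference in Il1r1 mRNA was not detectable at these dim signals. Il1rap, the accessory chain, had 5.12, 4.57, 4.20, 4.52 and 4.72 on its brighter probe set in control macrophages and 5.37, 4.64, 4.19, 4.76 and 4.72 in mye-macrophages. The difference was 0.11 (95% interval -0.05 to 0.27, adjusted p = 0.584 from blocked limma), and the dimmer Il1rap probe set had -0.23 (95% interval -0.46 to 0.01, adjusted p = 0.424), so the signs differ between probe sets of this gene.

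Il1rl1, the receptor gene for IL-33, had 2.28, 2.02, 2.79, 2.94 and 2.48 in control macrophages and 2.88, 2.56, 2.65, 2.65 and 2.51 in mye-macrophages on its brighter probe set. Pairs 1 and 2 were higher with myelin by 0.60 and 0.55, and the mean difference was 0.15 (95% interval -0.15 to 0.45, adjusted p = 0.714 from blocked limma). It turned to -0.098 with the beta-actin difference as a covariate. The dimmer Il1rl1 probe set had 1.05 to 1.64 and a difference of -0.05. Mast cells carry this receptor, and all 9 of their listed markers were measured. Their summed level ran from 5.00 to 8.60 in control macrophages and from 5.17 to 8.68 in mye-macrophages (log2 of the sum). Of the 9, 8 were highest in the samples numbered 4 of both groups, as were 11.5% of all probe sets. The protease gene Cpa3 had 7.92 and 7.99 there. The exception was the receptor gene Kit, which was dim on all arrays (1.58 to 1.94). The matrix gene Dcn, from the list of mesothelial cells and fibroblasts, was also highest in the samples numbered 4 (6.22 and 6.29). Of that list 3 of 9 were highest in the samples numbered 4 of both groups. Its genes Col1a1, Col1a2, Col3a1 and Pdgfra stayed between 0.52 and 1.80 on all arrays. Whether mast cells or other cell types contribute to the Il1rl1 or Il1rn signal was not tested.

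The members also varied with the replicate number. In the same fit, the replicate number was tested by an F test over the block terms, a test chosen after the values had been seen. It passed for 9 of the 16 probe sets, against 16.4% of all probe sets, namely both of Il1a, that of Il1b, Il1rn, Il18 and Il18bp, both of Il1rap and 1 of Il33 (limma, adjusted p from 0.000224 to 0.0494). On the log2 scale, the means of the 5 pairs spanned 2.77 for Il1b and 2.19 for Il1rn. For the probe sets of Il1a they spanned 2.48 and 2.67. The largest mean difference between the groups was 0.54, and single pairs differed by up to 1.10 (Il1rn, pair 2). A span of 5 values and a mean over 5 pairs are unlike measures. Il1r1, Il1r2 and Il1rl1 did not pass. Without pair 2, where 7.05% of all probe sets passed, 7 of the 16 did, both Il1a probe sets and that of Il1b among them.

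Replicate 2 was the lowest sample of both groups for Il1a, Il1b and Il18, 4 of the 16 probe sets, as it was for 12.1% of all probe sets. It lay 2.70 below the mean of the other control macrophages in Il1b and 1.74 below that of the other mye-macrophages. Il18bp stood the other way, with replicate 2 as the highest sample of both groups. Over the 10 arrays, deviations of Il1a and Il1b from their group means correlated at 0.992, those of Il1b and Il18bp at -0.791 and those of Il1b and Il1rn at 0.190 (Pearson, brightest probe sets, given as descriptions since pairs are not independent). Outside the family the closest genes to Il1b were Ntn1 (0.986), the phosphatase gene Ptpre (0.980) and Cd14 (0.980), the co-receptor for lipopolysaccharide, and the same 3 genes were closest to Il1a. Closest to Il1rn were Ube2j1 (0.967), Camk2b (0.959) and Gdf9 (0.949). The closest genes were picked as the highest among all probe sets with 1 gene symbol, so high values are in part a product of that choice. Of 9 macrophage markers, 7 were lowest in replicate 2 of both groups. Lyz2 was lowest in the samples numbered 4 instead (12.04 and 11.93), where Il1a and Il1b were highest. Adgre1 was lowest in replicate 2 of control macrophages (5.09) but in replicate 5 of mye-macrophages (5.26). In replicate 2 the summed level of all 9 was 13.04 and 13.18, the lowest of each group, against at most 13.50 and 13.61. The part of the marker level in the Il1a and Il1b pattern was not tested.

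**Figure D3:**
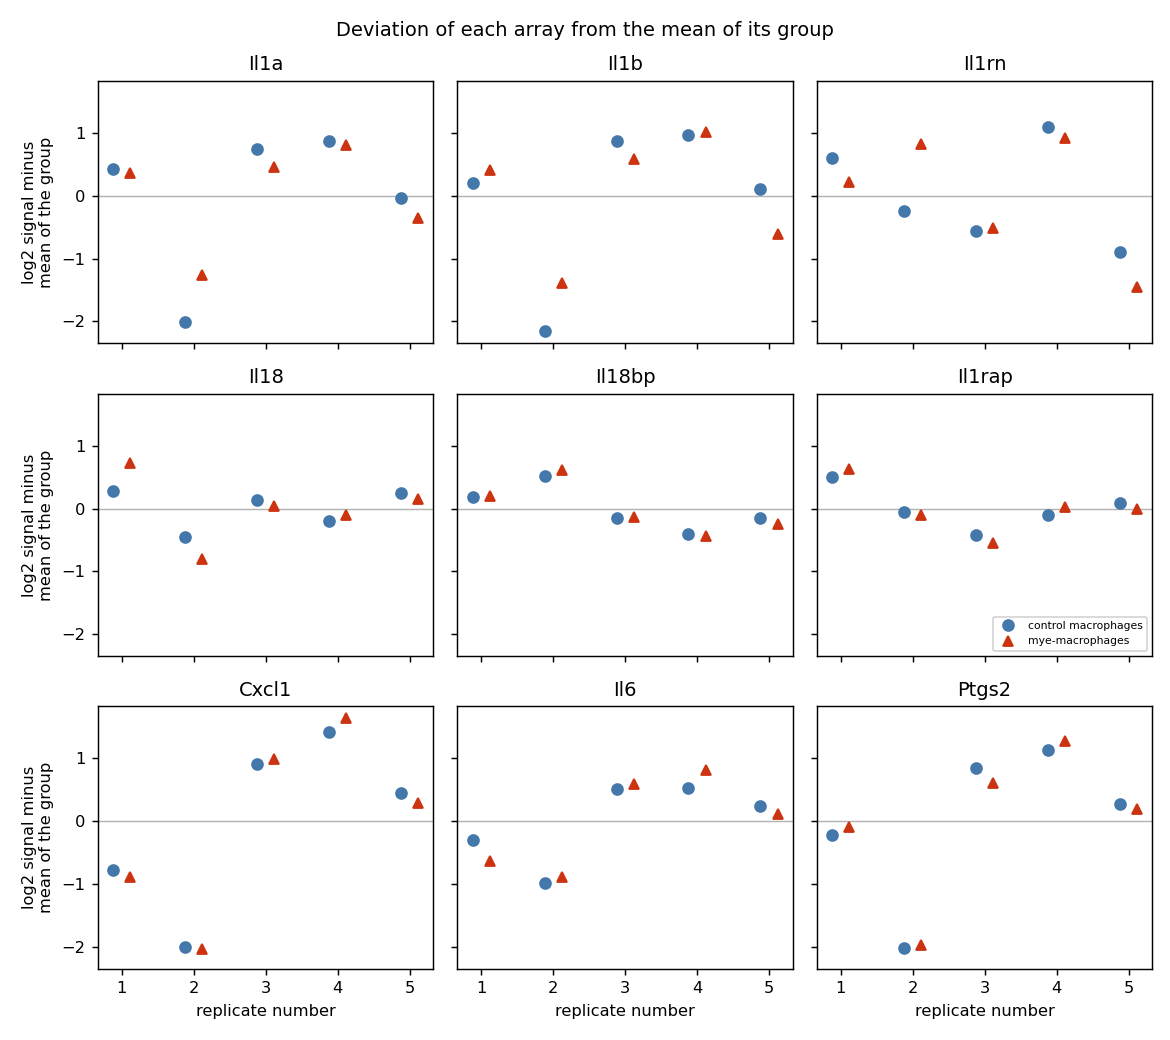
Deviation of each array from the mean of its group (log2 signal) by replicate number, for 6 members (brightest probe set) and 3 genes that IL-1 induces, with control macrophages as circles and mye-macrophages as triangles. Circle and triangle of the same number lie close together in most panels, and replicate 2 lies lowest for Il1a, Il1b, Il18, Cxcl1, Il6 and Ptgs2.

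Further genes of the pathway were taken from 4 lists with 1 probe set per gene, the brightest, and 54 of their genes were measured. The lists were chosen with earlier results of these data known, so their counts are given as descriptions. Of these 54, 2 were lower in mye-macrophages and none higher, beside 0.287% and 0.126% of all probe sets. At an unadjusted p under 0.05 there were 12, against 12.1% of all probe sets. Of the 54, 40 lay below 0, where 48.4% of all probe sets did. Both genes that passed belong to the targets that IL-1 induces. Il6, the gene of a cytokine of the acute phase response, had 7.05, 6.37, 7.87, 7.89 and 7.60 in control macrophages and 5.83, 5.58, 7.06, 7.29 and 6.58 in mye-macrophages. It was lower in all 5 pairs although the groups overlapped, and fell by 0.89 on the log2 scale (standard error 0.09, adjusted p = 0.00817 from blocked limma). Csf2, which encodes the growth factor GM-CSF, had 5.79, 3.95, 6.73, 6.80 and 5.72 in control macrophages and 4.97, 3.78, 6.18, 6.20 and 4.97 in mye-macrophages. It fell by 0.58 in 5 of 5 pairs (standard error 0.10, adjusted p = 0.0446 from blocked limma). Neither passed without the block (adjusted p = 0.996 from limma) or without pair 2 (0.0509 for both). With the block as a random effect the adjusted p was 0.328 for Il6 and 0.671 for Csf2, and with the beta-actin difference as a covariate 0.0897 and 0.324 (limma). Il6 was also lost without pair 5 (0.0502), and Csf2 in each fit that left out a pair (0.0509 to 0.177).

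Of 20 IL-1 targets, 15 lay below 0, with a median of -0.17, and 9 were lower in 5 of 5 pairs, as were 6.59% of all probe sets. The neutrophil chemokine gene Cxcl2 had -0.53 and did not pass (adjusted p = 0.0560 from blocked limma). With the adjustment over the more variable 50% of the probe sets 5 targets were lower, Cxcl2, Cxcl1, Tnf, Il6 and Csf2, where 2.69% of the probe sets passed. Replicate 2 was the lowest sample of both groups in 15 of the 20 targets. Cxcl1 (named, like Tnf and Ptgs2, after its values were seen) had 7.44 and 6.99 there, against 8.67 to 10.88 in the other control macrophages and 8.14 to 10.67 in the other mye-macrophages. Cxcl1 and Il6, unlike Il1a and Il1b, were lower with myelin in pair 2 as well.

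The remaining lists held no gene that passed. The 21 measured signaling genes ran from -0.17 to 0.16 with a median of -0.07, with 17 of them below 0, and the largest differences were those of the NF-κB subunit gene Nfkb1 (-0.17), the adaptor gene Tab3 (-0.17) and the p38 kinase gene Mapk14 (0.16). Among 9 genes of processing and release the median was -0.05, and the inflammasome adaptor gene Pycard (0.26, standard error 0.13), the thioredoxin inhibitor gene Txnip (-0.17) and the pore-forming gene Gsdmd (0.14) differed most (lowest adjusted p = 0.471 from blocked limma). Casp1, whose product cleaves the precursors of IL-1β and IL-18, had 8.80 to 8.94 in control macrophages and 8.59 to 9.03 in mye-macrophages, and was named after its values were seen. Of the other genes of the family 4 of 11 were measured. Il1rl2 had a difference of 0.16, Sigirr, an inhibitory receptor gene, 0.02 and Il36b, a ligand gene, -0.02. Signals of Il1rl2 (1.97 to 2.48) and Sigirr (1.54 to 2.04) were dim, and Il36b had 1.96 to 3.43.

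**Figure D4:**
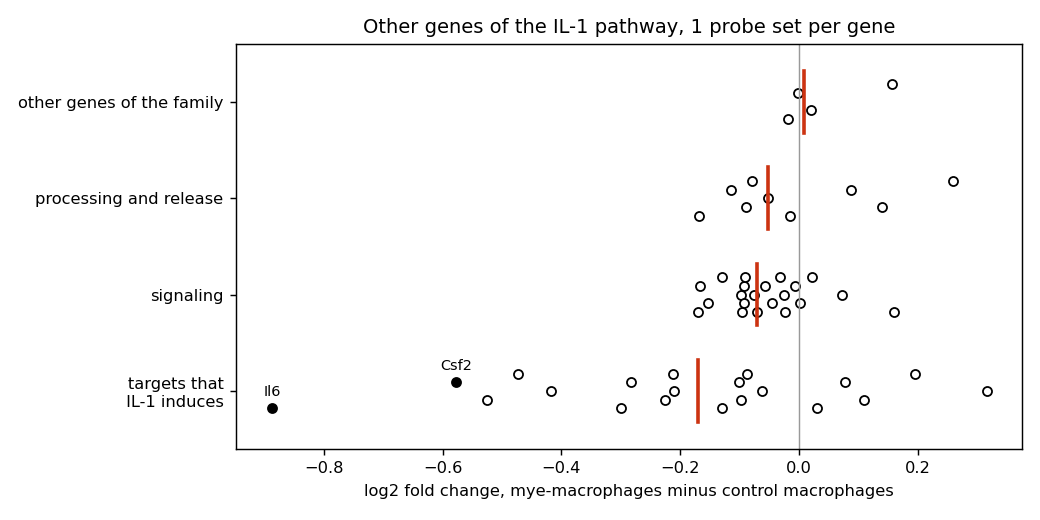
Log2 fold changes of the 54 measured genes of 4 IL-1 pathway lists, mye-macrophages minus control macrophages, 1 point per gene and 5 samples per group and a red bar at the median of each list. Filled points had an adjusted p under 0.05 (limma with the block), and both of them, Il6 and Csf2, are targets that IL-1 induces.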

How the data were processed

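Total RNA of 10 samples was hybridized to Affymetrix rat genome arrays. The authors deposited log2 values per probe set, made from the raw files with the affy package by RMA, which corrects the background, normalizes between arrays and summarizes probes. Of the probe sets, 57 Affymetrix controls were left out, and 31042 were tested. The annotation gives 1 gene symbol to 20826 of them, several to 436 and none to 9780. The number of arrays limits the precision.

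The comparison used R 4.3.3 and the functions lmFit and eBayes of limma 3.58.1, with the replicate number as a fixed block, Benjamini-Hochberg adjustment over all probe sets tested and a threshold of 0.05. The pairing comes from the numbers in the labels. In a check, each of the 10 samples deviated most like the sample of its own number. The methods' unpaired t-test and 50% variance filter were alternatives, as were scaling, weights, variance priors, a beta-actin covariate and the omission of each pair. Exact permutation tests were two-sided. The fit was tested on simulated data. Promoters were searched in Python 3.11.15. Genes named were all members, list genes that passed and the 3 with the largest differences in each list, plus the 3 genes closest in pattern to Il1a, Il1b and Il1rn, and others are marked as named later. The F test of the replicate number was chosen after seeing the data. The members and lists were chosen with earlier results of these data known. The 7 marker lists also covered T, B and NK cells, and astrocytes and endothelium. Only the list of oligodendrocytes held genes that passed, 2 that were higher.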

Additional observations from a re-analysis of the deposited data

Results flagged for a closer look

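The Il1b signal of control macrophages, replicate 2, was 8.05, and the nearest of the other 4 control samples had 10.31. The gap was 0.722 of the range of the group, above the critical value of 0.71 for 5 samples. It was the 1 such sample among 32 groups of 5 (the 16 member probe sets in both groups), and chance marks about 1 group in 20. Mye-macrophages, replicate 2, had 8.48, also the lowest value of its group. The cause was not tested.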

How the results depend on the processing

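None of the 16 IL-1 family probe sets passed under any setting except the intensity trend in the variance prior, where 1 did, the dimmer Il1a probe set. The count over all probe sets, 128 with the replicate block, was 0 without the replicate block, by the methods' t-test (1437 at an unadjusted p under 0.05) and by a paired t-test alone, 5 with the block as a random effect, 3 with the beta-actin difference as covariate, 239 with array weights, 661 with the intensity trend, 418 over the variance filter, 337 over the brighter 50% of the probe sets, and 11 to 300 when a pair was left out (11 without pair 2, 300 without pair 3). The count of pathway genes, 2 with the block, was 0 without it, as a random block, with the covariate and by both t-tests, 4 with array weights, 7 with the trend, 5 over the variance filter and over the brighter 50%, and 0 to 1 when a pair was left out.

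Some signs turned, among them that of the brighter Il1rl1 probe set, which had the highest difference of the members (0.15). With array weights Il1rn had -0.056 and Il1r1 (brightest probe set) -0.0092. With the beta-actin difference as covariate Il1r1 had -0.11, Il18 -0.073, the dimmer Il33 probe set 0.021, the brighter Il1rl1 probe set -0.10 and Sigirr -0.090. Leaving out a pair gave -0.24 to 0.17 for Il1rn, -0.037 to 0.19 for Il1r1, -0.10 to 0.10 for Il18, -0.098 to 0.019 for the dimmer Il1rl1 probe set, -0.10 to 0.12 for Sigirr and -0.12 to 0.11 for Il36b. Il6 and Csf2 were lost with the random block and the covariate, and Csf2 also with quantile normalization (limma, adjusted p = 0.0566). Cxcl2 passed with quantile normalization (0.0366), array weights (0.0436), the intensity trend (0.00266) and the variance filter (0.0280). The causes were not tested. The replicate number passed for 7 to 9 of the 16 probe sets under its alternatives. Dim probe sets such as those of Il1r1 and Il1r2 limit what can be seen.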
